A study of Homo sapiens with 9 samples.

Results

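Collagens, laminins and their partner proteins form the extracellular matrix, the mesh that cells secrete around themselves. The genes described here were taken by name: every gene whose symbol is COL, a number and A (such as COL5A2), every laminin chain (LAMA, LAMB or LAMC and a number), and FN1, TNC, SPARC, POSTN, LUM, DCN, BGN, VCAN, FBN1, FBN2, FBLN1, NID1, NID2, LOX, LOXL1 and LOXL2. A probe set, the group of short probes that measures one transcript on the array, was included when this gene was its only annotated one. The choice gave 137 probe sets for 58 genes, out of 22283 probe sets and 11963 genes on the array. The rule itself uses gene names alone.

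All 9 arrays came from A673 cells, an established line of Ewing sarcoma with the EWS/FLI fusion, so every group shares that oncogene and the results concern 1 cell line. Cells were transfected with siRNA at 5 nM and kept for 48 hours, and they gave 2 arrays with a control siRNA, 2 with EZH2 siRNA no.2 and 1 with an EZH2 siRNA under another label, called the other EZH2 siRNA here. Trichostatin A (TSA), which blocks histone deacetylases, was given at 100 nM for 24 hours (2 arrays), and its solvent DMSO alone at 0.01% for the same time (2 arrays). EZH2 is the enzyme of Polycomb repressive complex 2 that methylates histone H3 on lysine 27, a mark of silenced genes. The labels call the numbered arrays biological replicates and do not say that they came from separate cultures, so the p-values measure the spread between these arrays, which may be technical.

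Fibrillar collagens are secreted as procollagens, trimmed, and assembled into fibrils that lysyl oxidases crosslink. Type IV collagen and laminins build separate networks in basement membranes, which nidogens tie together, while fibronectin and tenascin-C are glycoproteins to which cells attach through integrins and other receptors. Many of these genes are classical products of mesenchymal cells, and a mesenchymal program is held back by EWS/FLI in Ewing cells.

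On the arrays the deposited quantity is the MAS5 signal, a brightness per probe set. Each probe set has its own response, so signals were compared between arrays and never between genes. The median signal of an array was 124.7 to 158.9, and the number of arrays limits the precision. The paired arrays of a group correlated at r = 0.956 to 0.969 over the probe sets (log2 scale). The EZH2 signal was 1130 and 1172 on the control siRNA arrays, 572 and 271 after siRNA no.2 and 681 after the other EZH2 siRNA, so it was lower on every knockdown array than on either control array. The log2 fold change of EZH2 was -1.48 ± 0.32 (SE) for siRNA no.2 (unadjusted p = 0.00066, adjusted p = 0.862 with limma). With DMSO the EZH2 signal was 990 and 861, and with TSA it was 1257 and 1055. All 6 Ewing sarcoma markers on the array (CCK, CD99, DKK2, NKX2-2, PPP1R1A and STEAP1, of 8 listed) passed the filter on low signals. Of 7 fibroblast markers, 3 passed (PDGFRB, S100A4 and THY1), and DPT, FAP, PDGFRA and TCF21 did not. The marker lists for endothelium, blood and epithelium had 2 of 7, 2 of 5 and 0 of 5 past the filter.

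Of the 58 matrix genes, 43 had a probe set with a mean signal over all arrays of at least 53.3, the filter used for testing, and the other 15 did not. The 15 were COL4A3, COL4A4, COL4A5, COL8A1, COL9A1, COL10A1, COL11A1, COL14A1, COL15A1, COL19A1, LAMA1, LAMB4, LAMC3, LUM and POSTN, whose brightest probe sets had mean signals from 4.81 for COL4A4 to 48.9 for COL4A3. POSTN (periostin) and LUM (lumican), both typical of fibroblast-rich stroma, had mean signals of 44.9 and 32.6. The tested genes comprised 8 of 9 fibrillar collagens, 3 of 6 basement membrane collagens, all 3 chains of collagen VI, 4 of 7 fibril-associated collagens, 4 of 7 other collagens, 7 of 10 laminin chains, both nidogens, 6 of 7 matrix glycoproteins, 3 of 4 proteoglycans and all 3 lysyl oxidases. Each gene is represented by its brightest probe set. The genes that passed the filter are therefore those above a limit on mean signal, not the whole family. No detection calls were used, so the limit does not show which genes are expressed.

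**Figure D1:**
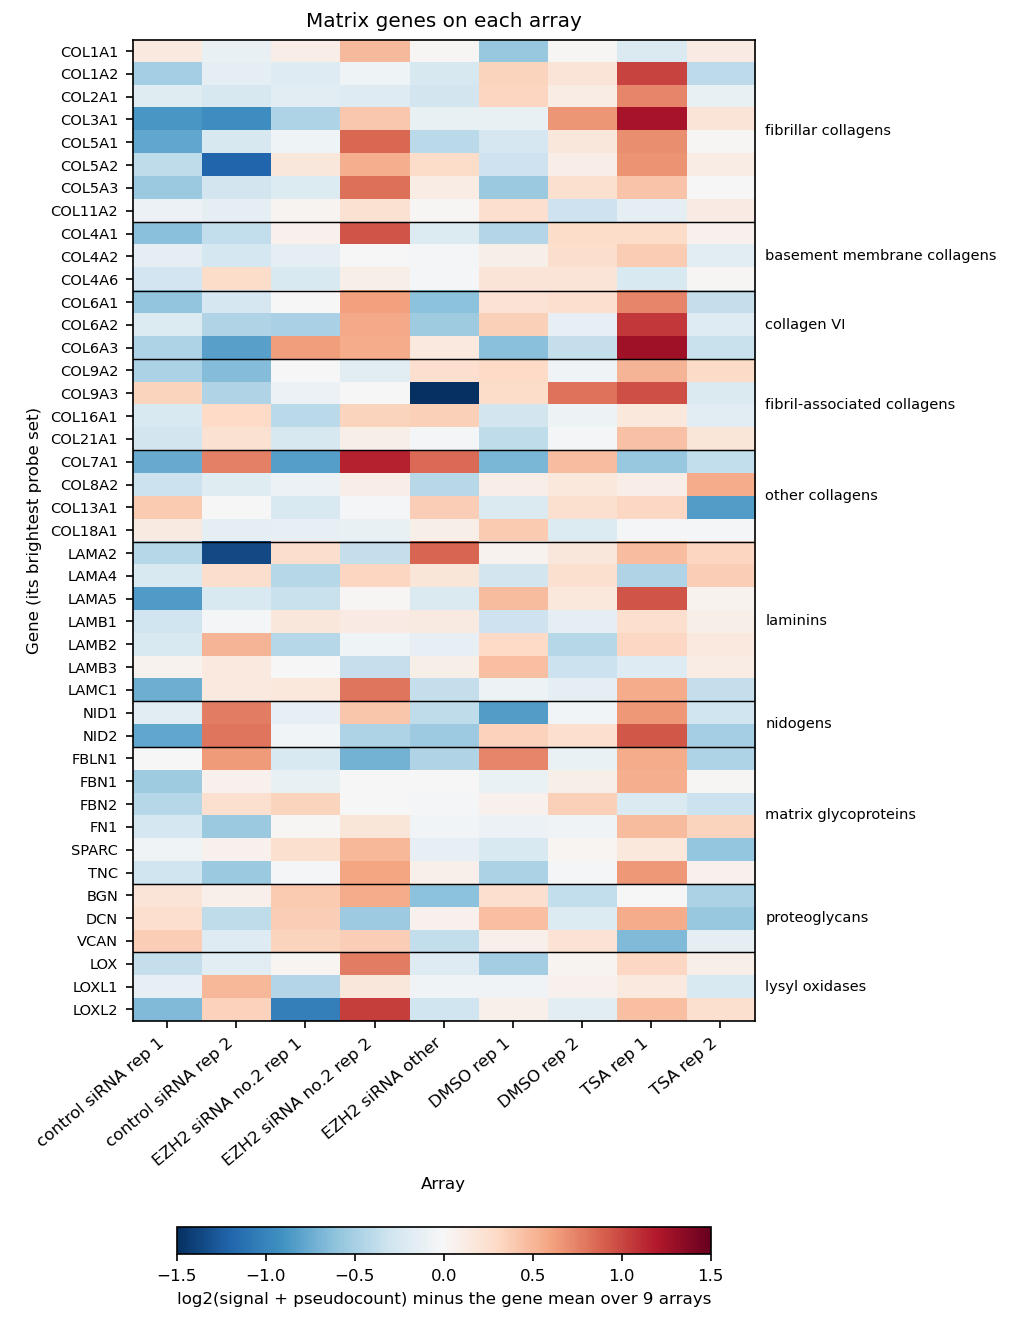
Signals of the 43 matrix genes on the 9 arrays, as log2(signal + 25.1) minus the mean of the gene over all arrays, with red for higher and blue for lower and genes grouped by role. Among the 9 columns, TSA replicate 1 holds the highest value of 18 genes and EZH2 siRNA no.2 replicate 2 that of 11.

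The comparison of EZH2 siRNA no.2 with the control siRNA addresses which genes differ when EZH2 is reduced. In it 30 of the 43 matrix genes were higher and 13 were lower, with a median log2 fold change of 0.26 (interquartile range -0.06 to 0.58) against 0.08 over all 9100 genes tested, of which 58.5% were higher. An unadjusted limma p under 0.05 was found for 6 matrix genes, all higher, which is 14.0% of the 43, where 3.96% of all genes were higher and 1.76% lower at that level. The 6 genes were COL5A2, COL4A1, COL6A3, COL5A1, FN1 and TNC. After Benjamini-Hochberg adjustment over all genes, 0% of the 9100 genes and none of the 43 matrix genes passed 0.05, with a lowest adjusted p of 0.862. Groups did not overlap for 18 higher and 3 lower matrix genes, and for 22.8% and 13.1% of all genes. When the arrays were scaled to a common median, 4 matrix genes were higher and 1 (FBLN1) lower at an unadjusted p under 0.05, in place of 6 and 0. That scaling moved the median of all genes from 0.08 to -0.06 and the median of the matrix genes to 0.14. It divides each array by 1 number, which moves the log2 values of all genes by nearly the same amount. The gap between matrix genes and all genes, 0.18 as deposited and 0.19 after scaling, could thus hardly change and is no check.

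Over the other settings run, the unadjusted limma p stayed under 0.05 in 14 of 15 for COL5A2, 13 of 15 for COL4A1, 12 of 15 for COL5A1, 11 of 14 for COL6A3, 11 of 15 for TNC and 10 of 15 for FN1. The count of 6 leaned on single arrays. It was 2 without EZH2 siRNA no.2 replicate 2, 3 without control siRNA replicate 2 and 11 without EZH2 siRNA no.2 replicate 1. When arrays of the same number were set against each other, the median of the 43 genes was 0.20 in replicate 1 (28 genes higher) and 0.35 in replicate 2 (31 genes higher), and 21 genes were higher in both and 5 lower in both. Over all genes the medians were 0.10 and 0.06, and 36.0% of genes were higher in both. The replicate 2 arrays also had brighter hybridisation controls, transcripts added during the array protocol, with a mean log2 signal of 10.43 to 10.53 against 9.80 to 10.16 on all other arrays. The ratio of 3′ to 5′ signal of ACTB, a measure of RNA integrity, was likewise higher on replicate 2 than on replicate 1 of each group, at 1.28 against 1.03 with the control siRNA and 1.24 against 1.04 with siRNA no.2. The part of either in the result was not tested.

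All 8 fibrillar collagens that were tested had higher mean signals with EZH2 siRNA no.2 (median log2 fold change 0.50), and 7 of the 8 were higher under either rescaling of the arrays. Collagen V makes up the core of collagen fibrils and limits their thickness. COL5A2, its alpha 2 chain, had signals of 1512 and 856 with the control siRNA and 2237 and 2894 with siRNA no.2, and every knockdown array lay above both controls. The difference was 1.14 ± 0.32 (SE) on the log2 scale, 2.21-fold, with an unadjusted limma p of 0.00424 and an adjusted p of 0.862. The array of the other EZH2 siRNA stood at 2394, the DMSO arrays at 1594 and 2119 and the TSA arrays at 3179.6 and 2133. The DMSO arrays were thus also above both control siRNA arrays. Without control siRNA replicate 2, the lowest of the 9 arrays, the log2 fold change of COL5A2 was 0.74 (unadjusted p = 0.0618). The gene's dimmer probe set past the filter gave 0.64.

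COL5A1, the alpha 1 chain, had signals of 179 and 271 with the control siRNA and 312 and 612 with siRNA no.2, without overlap. The difference was 0.91 ± 0.37 (SE) on the log2 scale, 1.88-fold, with an unadjusted limma p of 0.032 and an adjusted p of 0.862, and 0.45 without siRNA no.2 replicate 2. The array of the other EZH2 siRNA, at 241, lay between the control arrays, the DMSO signals were 269 and 370.5, and the TSA signals were 545 and 329. Its 2 other probe sets past the filter gave log2 fold changes of 0.84 and 0.80. COL5A3, the alpha 3 chain, had 214 and 266 with the control and 279 and 601 with siRNA no.2, a log2 fold change of 0.73 (unadjusted p = 0.0844). The 3 chains of collagen V were all higher, and in each of them siRNA no.2 replicate 2 was the highest siRNA array.

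COL3A1, the chain of collagen III, is the neighbour of COL5A2 on chromosome 2. Its signals were 191 and 182 with the control siRNA, 262 and 497 with siRNA no.2, 340.4 with the other EZH2 siRNA, 341 and 603 with DMSO and 908 and 429 with TSA. Both control siRNA arrays lay below the other 7 arrays. The log2 fold change was 0.87 with siRNA no.2 (SE 0.41, unadjusted p = 0.055 with limma), and 1.14 and 1.03 from the 2 other probe sets past the filter. The control siRNA signals behind the 1.14, 46.08 and 49.25, were both under the filter limit. Collagen I, the main fibrillar collagen of bone and skin, showed smaller differences. COL1A2 had 4262 and 5495 with the control and 5334 and 5802 with siRNA no.2, overlapping groups with a log2 fold change of 0.20, although its dimmer probe set gave 0.89. COL1A1 gave 0.28, and the cartilage collagens COL2A1 and COL11A2 gave 0.03 and 0.24.

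Collagen VI forms beaded microfibrils next to basement membranes, and its 3 chains were all higher with siRNA no.2, also under both rescalings (2 of 3 without siRNA no.2 replicate 2). COL6A3 had signals of 66.0 and 46.4 with the control and 170.0 and 160.5 with siRNA no.2. The knockdown arrays were close to each other and well above both controls, with a difference of 1.24 ± 0.47 (SE) on the log2 scale, 2.36-fold, with an unadjusted limma p of 0.022 and an adjusted p of 0.862. The array of the other EZH2 siRNA read 115, DMSO 56.6 and 73.0 and TSA 279 and 75.2. Its p under the omission of single arrays ranged from 0.0365 to 0.0976, and the signals are near the filter, so the fold change depends on the pseudocount (0.82 to 1.49 over the settings tried). The neighbouring genes COL6A1 and COL6A2 on chromosome 21 had log2 fold changes of 0.72 and 0.37. COL6A1 stood at 387 and 497 with the control and 590.5 and 925 with siRNA no.2, without overlap. COL6A2 stood at 141 and 114 with the control and 111 and 258 with siRNA no.2, where replicate 1 of the knockdown was below both controls. The 4 other COL6A1 probe sets past the filter gave -0.20, 0.04, 0.13 and 0.92. The one at 0.92 had a mean signal of 37.5 with the control siRNA, under the filter limit.

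Collagen IV is the network-forming collagen of basement membranes. COL4A1 had signals of 885 and 1064 with the control siRNA and 1449.7 and 2681 with siRNA no.2, without overlap but with the knockdown arrays far apart. The difference was 1.00 ± 0.33 (SE) on the log2 scale, 2.01-fold, with an unadjusted limma p of 0.0112 and an adjusted p of 0.862, and 0.57 (unadjusted p = 0.149) without siRNA no.2 replicate 2. The array of the other EZH2 siRNA had 1199, DMSO 1016 and 1681 and TSA 1686 and 1452. COL4A2, whose product joins that of COL4A1 in the same trimer, had 2201 and 2022 with the control and 2192 and 2435 with siRNA no.2, overlapping groups and a log2 fold change of 0.13 ± 0.25 (SE). The dimmer probe sets of the pair gave 0.56 for COL4A1 and 0.61 for COL4A2, so the brighter probe sets were further apart than the dimmer ones. COL4A6 gave -0.07.

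COL4A1 and COL4A2 lie head to head on chromosome 13, with 127 bases from one RefSeq start to the other, and their promoters are shown because 1 short stretch lies between both starts. The promoters of COL6A3, FN1, COL5A1 and TNC follow, since these are the other genes with an unadjusted p under 0.05 that the promoter table used here (RefSeq, GRCh38.p14) lists. COL5A2 is not in that table. Each sequence runs 5′ to 3′ on the strand of the gene (the plus strand for the shared stretch) and stops just before the start, the first of 2 listed starts for COL5A1. Capitals mark the motifs searched on both strands, which were the TATA box TATAAA, the CCAAT box, the letters GGGCGG that SP factors can bind, and the repeat GGAAGGAA, of the kind that ETS factors such as EWS/FLI can bind. In lower case are the remaining bases. The stretches are chr13:110307158-110307283 for the shared one, chr2:237414165-237414414 for COL6A3 (minus strand), chr2:215436069-215436318 for FN1 (minus strand), chr9:134641553-134641802 for COL5A1 (plus strand) and chr9:115118158-115118407 for TNC (minus strand).
COL4A1 and COL4A2: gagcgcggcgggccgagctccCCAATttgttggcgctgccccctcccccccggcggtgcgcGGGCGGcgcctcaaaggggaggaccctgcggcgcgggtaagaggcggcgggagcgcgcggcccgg
COL6A3: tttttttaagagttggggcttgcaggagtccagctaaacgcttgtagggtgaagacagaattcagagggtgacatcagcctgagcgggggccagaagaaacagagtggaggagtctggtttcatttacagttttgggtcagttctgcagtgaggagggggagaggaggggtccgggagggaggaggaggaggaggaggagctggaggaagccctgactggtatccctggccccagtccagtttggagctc
FN1: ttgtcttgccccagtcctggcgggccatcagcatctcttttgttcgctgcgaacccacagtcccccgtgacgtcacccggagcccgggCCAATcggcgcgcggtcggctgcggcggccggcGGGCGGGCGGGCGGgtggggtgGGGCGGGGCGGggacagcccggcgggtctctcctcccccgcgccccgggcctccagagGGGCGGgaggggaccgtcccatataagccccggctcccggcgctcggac
COL5A1: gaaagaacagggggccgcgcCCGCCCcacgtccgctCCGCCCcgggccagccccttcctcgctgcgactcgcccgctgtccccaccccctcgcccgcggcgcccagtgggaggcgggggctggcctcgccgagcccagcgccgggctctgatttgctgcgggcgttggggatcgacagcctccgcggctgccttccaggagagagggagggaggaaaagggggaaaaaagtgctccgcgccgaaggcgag
TNC: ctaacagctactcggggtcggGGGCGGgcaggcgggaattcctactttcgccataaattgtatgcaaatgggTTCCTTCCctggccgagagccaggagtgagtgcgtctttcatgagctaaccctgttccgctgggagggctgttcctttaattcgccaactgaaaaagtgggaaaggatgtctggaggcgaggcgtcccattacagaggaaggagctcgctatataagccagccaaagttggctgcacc

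The stretch between COL4A1 and COL4A2 held 1 CCAAT and 1 GGGCGG, and 80.2% of its bases were G or C. FN1 held 1 CCAAT and 6 GGGCGG, some of them overlapping, and COL5A1 held 2 GGGCGG on the opposite strand. TNC held 1 GGGCGG and 1 GGAAGGAA on the opposite strand, and COL6A3 held none of the 4 motifs. The table had a promoter of 300 bases, reaching past the start, for 44 of the 58 matrix genes, and some genes had several, which made 59. GGGCGG was in 35 of the 59 (59.3%) against 45.0% of all 35116 promoters, CCAAT in 18 (30.5% against 34.6%), TATAAA in 7 (11.9% against 11.5%) and GGAAGGAA in 3 (FBN2, LAMB2 and TNC, 5.08% against 3.67%). These are letters in a window, not measured sites.

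Among the matrix glycoproteins, 5 of 6 tested genes were higher with siRNA no.2, and 3 of 6 without control siRNA replicate 1. Fibronectin, FN1, had signals of 11915 and 9719 with the control and 14398 and 16209 with siRNA no.2, without overlap, a difference of 0.51 ± 0.21 (SE) on the log2 scale, 1.42-fold, with an unadjusted limma p of 0.0319 and an adjusted p of 0.862. The array of the other EZH2 siRNA, at 13873, and the DMSO arrays, at 13378 and 13749, were also above both control arrays, and TSA gave 19832 and 17959. All 6 FN1 probe sets past the filter were higher with siRNA no.2, with log2 fold changes of 0.40 to 0.58. FN1 did not keep a p under 0.05 in 5 of 15 settings. These were arrays scaled to a common median (0.36, unadjusted p = 0.191 with limma), no filter (unadjusted p = 0.0638), no trend (unadjusted p = 0.0748), and leaving out control siRNA replicate 2 (unadjusted p = 0.196) or siRNA no.2 replicate 2 (unadjusted p = 0.14).

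Tenascin-C, TNC, a large glycoprotein of remodelling tissue and tumour stroma, had 2164 and 1801 with the control and 2640.2 and 4038 with siRNA no.2. The groups did not overlap, and the difference was 0.72 ± 0.30 (SE) on the log2 scale, 1.65-fold, with an unadjusted limma p of 0.0331 and an adjusted p of 0.862, or 0.42 without siRNA no.2 replicate 2. The other arrays read 2820.4 (other EZH2 siRNA), 1921 and 2609 (DMSO) and 4189 and 2792 (TSA). SPARC, a collagen-binding protein, gave 0.36, and the fibrillins FBN1 and FBN2, which build microfibrils, gave 0.17 and 0.26. The dimmer FBN1 probe set gave 1.26, with 26.8 and 200.7 in the controls and 198.7 and 274 after knockdown. These groups overlapped, and control replicate 1 was under the filter limit.

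FBLN1, fibulin-1, was the tested matrix gene with the most negative difference. Its signals were 616 and 968 with the control, 519.5 and 366 with siRNA no.2 and 442 with the other EZH2 siRNA, so all 3 knockdown arrays were below both controls. The log2 fold change was -0.79 ± 0.40 (SE, unadjusted p = 0.0716). The DMSO arrays had 1029 and 571 and the TSA arrays 913 and 436, with a gap between replicates in both. The 4 other FBLN1 probe sets past the filter gave log2 fold changes from -0.36 to 1.48, in both directions, so the direction of FBLN1 rests on the probe set chosen.

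**Figure D2:**
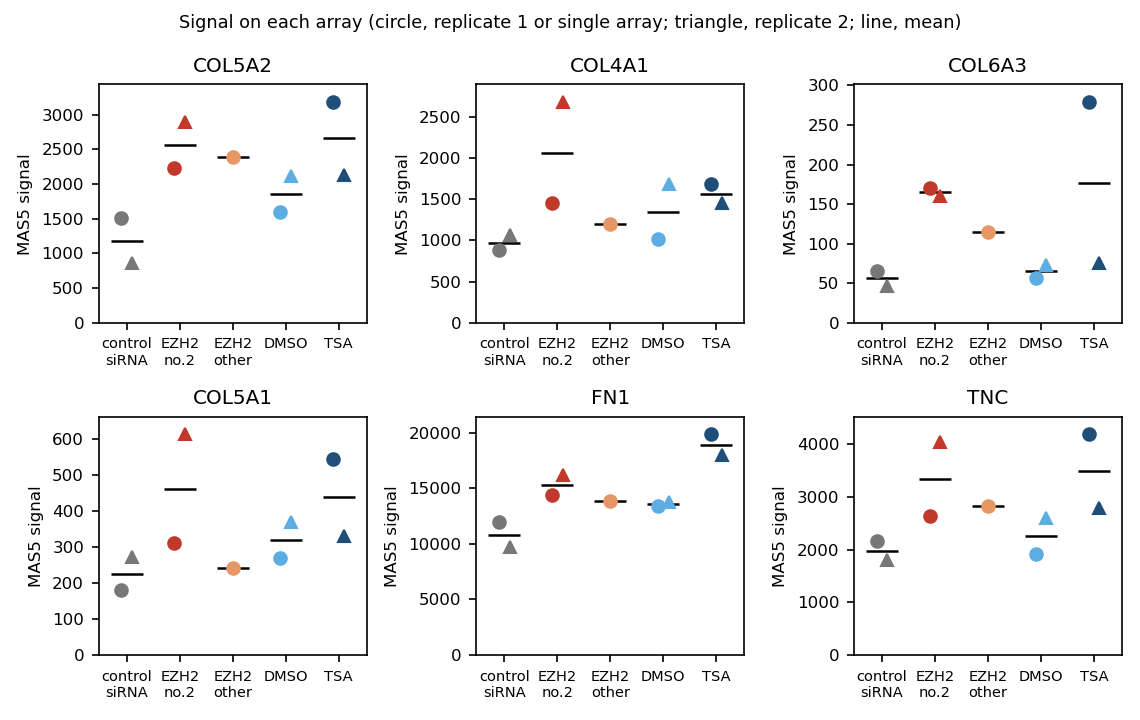
MAS5 signal on each array (vertical axis, from 0) for the 6 matrix genes with an unadjusted p under 0.05 in the siRNA no.2 comparison, with circles for replicate 1 or the single array, triangles for replicate 2 and lines for group means. In every panel both EZH2 siRNA no.2 arrays lie above both control siRNA arrays, and TSA replicate 1 is above TSA replicate 2.

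Of the 7 laminin chains tested, 4 were higher and 3 lower. LAMC1, the gamma chain of most laminins, had 908 and 1692 with the control siRNA and 1717 and 2699 with siRNA no.2, a log2 fold change of 0.78 (unadjusted p = 0.0577). Control replicate 1 was the lowest array, with the array of the other EZH2 siRNA at 1192, DMSO at 1449 and 1388 and TSA at 2257 and 1187. LAMB1, a beta chain, had 536 and 659 in the controls and 751 and 724 after knockdown, and a log2 fold change of 0.30. LAMA2, the alpha chain of muscle laminin, read 42.5 and 10.6 with the control and 84.4 and 46.1 with siRNA no.2 (0.85, unadjusted p = 0.0678 with limma). These control signals were both under the filter limit, which LAMA2 passed on its mean over all arrays. The other LAMA2 probe set past the filter went the other way, at -0.17 (54.8 and 87.8 with the control, 59.5 and 59.8 with siRNA no.2). LAMB2 was lower at -0.39, with 114 and 207 in the controls and 96.0 and 130.4 after knockdown, and the difference was -0.02 without control replicate 2. LAMB3, LAMA4 and LAMA5 gave -0.27, -0.07 and 0.39.

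The nidogens, which link laminin to collagen IV, were both lower in mean. NID2 had 594 and 1829 with the control siRNA and 1004 and 745 with siRNA no.2, so that control replicates were further apart than the groups (-0.27 ± 0.51, SE). NID1 had 60.5 and 137 in the controls and 62.9 and 102 after knockdown, at -0.15. Without control siRNA replicate 2 both nidogens were higher, with a median of 0.41.

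The lysyl oxidases, which crosslink collagen and elastin, differed in direction. LOXL1 had 2737 and 4221 with the control and 2179.7 and 3354 with siRNA no.2, a log2 fold change of -0.33 that was -0.02 without control replicate 2. LOX gave 0.66. Its other probe set past the filter was nearly as bright, with a mean signal of 81.7 against 82.3. That probe set gave 0.06, with 52.1 and 124.4 in the controls and 61.5 and 119.3 after knockdown. These groups overlapped, so the size of the LOX difference rests on the probe set chosen. With TSA the brighter LOX probe set gave 0.44 and the other -0.42. LOXL2 had 148 and 325 with the control and 109.5 and 536 with siRNA no.2, so both control arrays lay between the knockdown arrays.

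Proteoglycans are core proteins with sugar chains. BGN (biglycan) had 558 and 514 with the control siRNA, 645 and 725 with siRNA no.2 and 309.5 with the other EZH2 siRNA, the last below both controls. DCN (decorin), which coats collagen fibrils, had 463 and 291 in the controls and 506 and 257 after knockdown, with overlap, and VCAN (versican) gave 0.27.

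The median log2 fold change was -0.02 for the 4 fibril-associated collagens and 0.03 for the 4 remaining collagens. COL21A1 had 1614 and 2292 with the control and 1655 and 2074 with siRNA no.2, and COL16A1 had 175 and 263 in the controls and 152 and 269 after knockdown. Their log2 fold changes were -0.05 and -0.07. COL9A2 gave 0.47 and COL9A3 0.01. COL8A2 gave 0.26, with 72.1 and 82.3 in the controls and 89.1 and 105 after knockdown. COL18A1, a basement membrane collagen and the source of endostatin, gave -0.11, with 109 and 85.8 in the controls and 87.1 and 88.2 after knockdown. COL7A1, of the anchoring fibrils under epithelia, gave 0.16 ± 0.68 (SE), and COL13A1 gave -0.32. The other COL13A1 probe set past the filter gave 0.81, with 66.1 and 40.7 in the controls and 123 and 99.4 after knockdown, so the direction of COL13A1 also rests on the probe set chosen.

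**Figure D3:**
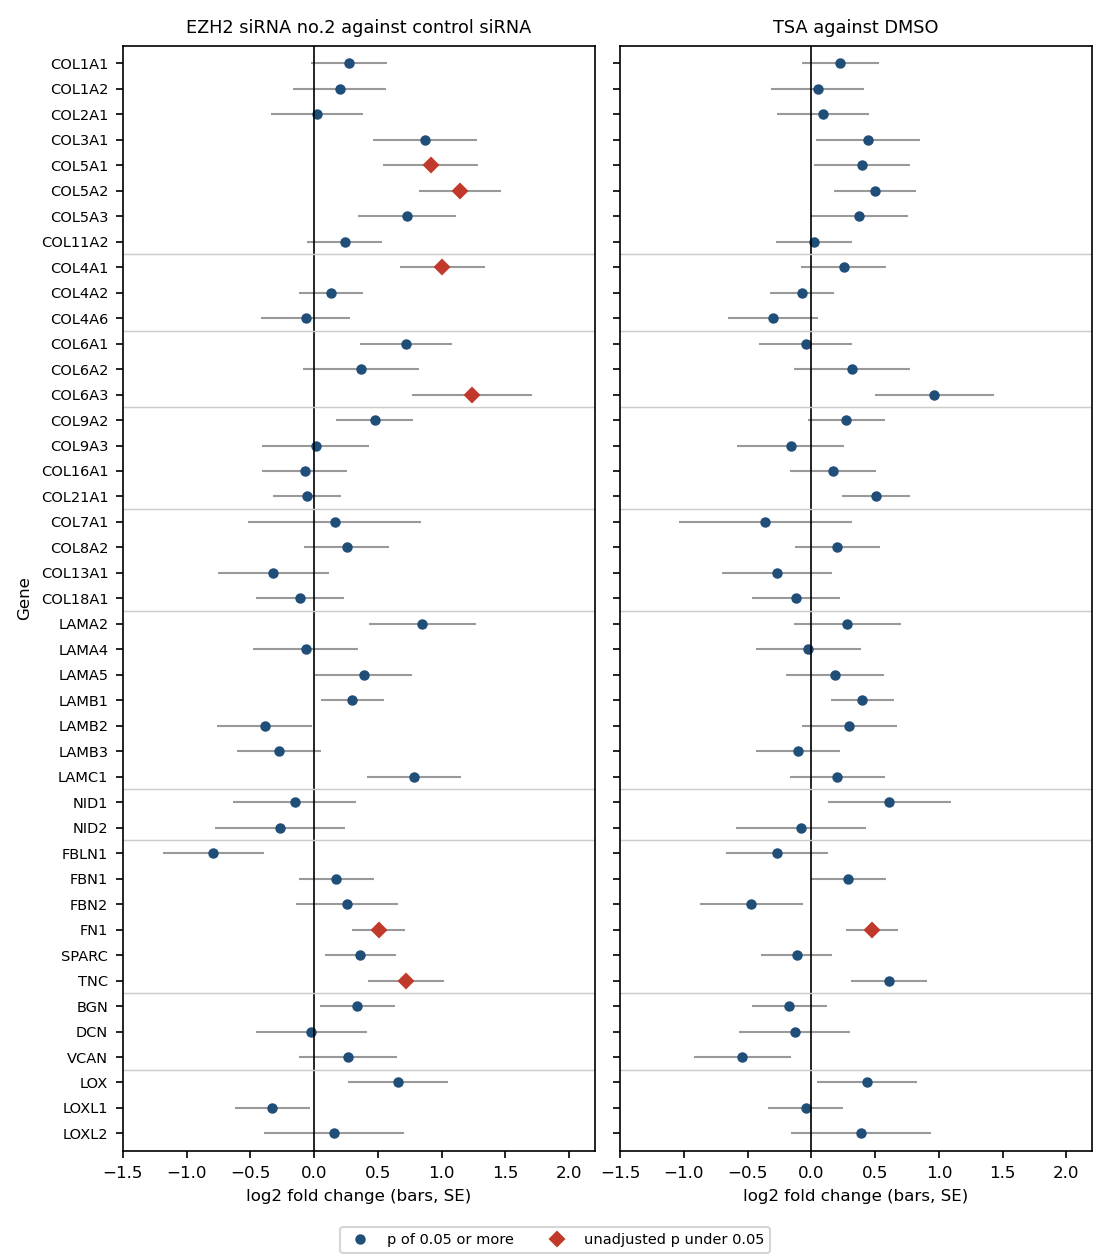
Log2 fold change with its standard error (horizontal axis) of the 43 matrix genes, in the order of their roles, for EZH2 siRNA no.2 against control siRNA on the left and TSA against DMSO on the right. Red diamonds mark an unadjusted limma p under 0.05, found for 6 genes on the left and 1, FN1, on the right.

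The comparison of TSA with DMSO addresses which genes differ when histone deacetylases are inhibited. In it 26 of the 43 matrix genes were higher and 17 lower, with a median log2 fold change of 0.18 against 0.03 over all genes, of which 53.7% were higher. Only FN1 had an unadjusted limma p under 0.05, and it was higher, so 1 of 43 was called where 1.27% of all genes were higher and 1.34% lower. After adjustment 0% of all genes passed 0.05, and the lowest adjusted p was 1.00. Groups did not overlap for 9 higher and 3 lower matrix genes, against 15.8% and 13.1% of all genes. One call among 43 genes is near the share over all genes.

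The TSA result differed between its replicates. TSA replicate 1 against DMSO replicate 1 gave a median of 0.43 with 34 of 43 matrix genes higher, and replicate 2 gave -0.11 with 17 higher. For all genes these medians were 0.06 and 0.00. Only 13 matrix genes were higher in both and 5 lower in both, and 28.0% of all genes were higher in both. Without TSA replicate 1 the median of the 43 genes was 0.01, and without TSA replicate 2 it was 0.43. The count with an unadjusted p under 0.05 went from 1 to 5 without TSA replicate 2, and to 0 without any other array of the comparison.

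**Figure D4:**
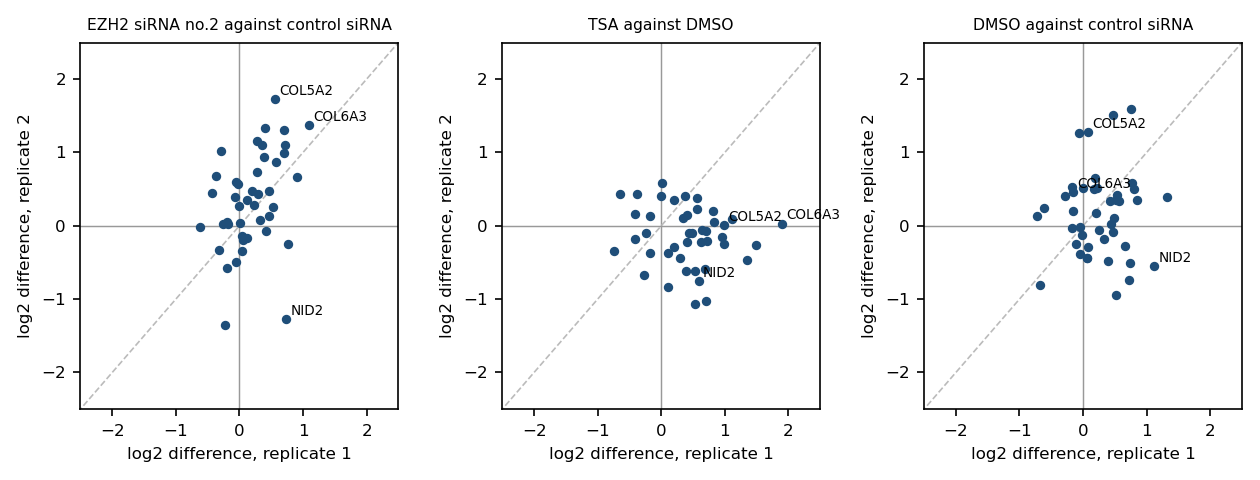
Log2 differences of the 43 matrix genes between arrays that carry the same replicate number, with replicate 1 on the horizontal and replicate 2 on the vertical axis, for 3 comparisons; the dashed line marks equal values. With EZH2 siRNA no.2, 21 genes lie above 0 on both axes, and with TSA 13 do, while most TSA points stand to the right of 0 in replicate 1.

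FN1 had signals of 13378 and 13749 with DMSO and 19832 and 17959 with TSA. The groups did not overlap and the arrays of each were close, giving 0.48 ± 0.21 (SE) on the log2 scale, 1.39-fold, with an unadjusted limma p of 0.0408 and an adjusted p of 1.00. TSA against DMSO gave log2 fold changes from 0.37 to 1.39 for its 6 probe sets past the filter, all higher. Scaling the arrays to a common median gave 0.40 (unadjusted p = 0.150 with limma), and leaving out 1 array gave unadjusted p = 0.043 to 0.132. Over all other settings run, 7 of 14 kept an unadjusted limma p under 0.05 for FN1.

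COL6A3 had 56.6 and 73.0 with DMSO and 279 and 75.2 with TSA, so replicate 2 of TSA barely exceeded the DMSO arrays while replicate 1 was far above them. The log2 fold change was 0.96 ± 0.47 (SE, unadjusted p = 0.0626). It was 0.16 without TSA replicate 1 and 1.76 without TSA replicate 2. TNC had 1921 and 2609 with DMSO and 4189 and 2792 with TSA, at 0.61 ± 0.30 (SE, unadjusted p = 0.065 with limma), and 0.31 without TSA replicate 1. Both TSA arrays were above both DMSO arrays for TNC.

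The 8 tested fibrillar collagens all had positive log2 fold changes with TSA, with a median of 0.30. The smallest was 0.02 for COL11A2, whose mean signal was 211 in both groups. Only 2 of the 4 COL1A1 probe sets past the filter were higher (-0.39 to 0.77), and the dimmer COL1A2 probe set gave -0.08. Of the 8 genes, 6 were higher under either rescaling of the arrays and 5 without TSA replicate 1. COL1A2 showed the pattern, with 7654 and 6986 in DMSO and 12304 and 4644 in TSA, where TSA replicate 1 was the highest and TSA replicate 2 the lowest of the 4 arrays. COL3A1 had 341 and 603 in DMSO and 908 and 429 in TSA, with overlap. COL5A2, at 1594 and 2119 in DMSO and 3179.6 and 2133 in TSA, had both TSA arrays above both DMSO arrays, with a log2 fold change of 0.50 (unadjusted p = 0.149 with limma). COL4A1 and COL4A2 gave 0.25 and -0.07, and the dimmer COL4A1 probe set gave -0.09. COL6A1 had 692 and 714 with DMSO and 1006 and 457 with TSA, and the TSA arrays lay on either side of both DMSO arrays.

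COL21A1, a fibril-associated collagen, had 1492 and 1928 with DMSO and 2652 and 2218 with TSA, without overlap, at 0.51 ± 0.27 (SE, unadjusted p = 0.0826 with limma). LAMB1 had 530.0 and 601 with DMSO and 795 and 711 with TSA, also without overlap, at 0.40, and its other probe set past the filter gave 0.76. LAMC1 gave 0.20 and 0.69 from its brighter and dimmer probe sets. NID1 gave 0.61, from 28.4 and 67.6 in DMSO and 124 and 52.3 in TSA.

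Among the matrix genes that were lower with TSA, VCAN, FBN2 and COL4A6 had the smallest p. VCAN had 72.2 and 82.0 with DMSO and 33.3 and 59.2 with TSA, at -0.54 ± 0.38 (SE, unadjusted p = 0.184 with limma), while its other probe set past the filter gave 0.55. FBN2 had 57.2 and 75.7 with DMSO and 43.1 and 38.1 with TSA, at -0.47, and COL4A6 had 106 and 107 with DMSO and 73.4 and 91.7 with TSA, at -0.30. For these 3 genes the TSA arrays were below both DMSO arrays. All 3 proteoglycans tested were lower, VCAN, BGN (-0.17) and DCN (-0.13), also under both rescalings, and 1 of 3 was lower without DMSO replicate 1 or without TSA replicate 2.

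Across the 9 arrays, each gene was set against its own median. On TSA replicate 1, 34 of the 43 matrix genes (79.1%) were above that median, against 47.3% of all genes, and 18 (41.9%) had their highest signal there, against 17.6%. EZH2 siRNA no.2 replicate 2 followed with 29 genes above (67.4% against 50.6%) and 11 highest (25.6% against 14.2%). On control siRNA replicate 1 only 8 were above (18.6% against 32.8%), and on the array of the other EZH2 siRNA 12 (27.9% against 44.4%). EZH2 siRNA no.2 replicate 1 had 13 (30.2% against 41.5%), TSA replicate 2 had 19 (44.2% against 48.3%) and control replicate 2 had 16 (37.2% against 44.2%). DMSO replicate 1 had 18 (41.9% against 42.3%) and DMSO replicate 2 had 23 (53.5% against 48.4%). EZH2 siRNA no.2 replicate 1 thus had fewer matrix genes above their median than either DMSO array. The ratio of 3′ to 5′ signal was 1.25 and 1.44 for ACTB and 0.846 and 1.02 for GAPDH on the TSA arrays, where all arrays spanned 1.03 to 1.44 and 0.846 to 1.03. The summed signal of all 7 fibroblast markers was 1878 to 2325 with the control siRNA and 1748 to 2606 with siRNA no.2. It was 1841 with the other EZH2 siRNA, 1611 to 1809 with DMSO and 1667 to 1825 with TSA. The sum of the 6 Ewing sarcoma markers was 31310 to 34350 with the control siRNA and lower, without overlap, at 26430 to 28190 with siRNA no.2. It was 30640 with the other EZH2 siRNA, 32800 to 37800 with DMSO and, again lower without overlap, 30690 to 30920 with TSA. The 5 blood markers on the array, of which CD3E and HBB passed the filter, summed to 203 to 219 with the control siRNA. The blood sum was 261 to 449 with siRNA no.2, above the controls, 388 with the other EZH2 siRNA, 258 to 347 with DMSO and 258 to 416 with TSA. The 7 endothelial markers, of which PECAM1 and ROBO4 passed the filter, summed to 286 to 368 with the control siRNA and 377 to 394 with siRNA no.2. The endothelial sum was 328 with the other EZH2 siRNA, 381 to 390.2 with DMSO and 296 to 382 with TSA. These sums add signals over genes, so the brightest marker weighs most, and single markers are not shown. Over all genes, 13.1% were lower without overlap with siRNA no.2 and likewise 13.1% with TSA, and 22.8% were higher without overlap with siRNA no.2. The part of these ratios and markers in the matrix signals was not tested. In a culture measured as a whole, fewer cells that make a transcript and less of it per cell cannot be told apart.

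**Figure D5:**
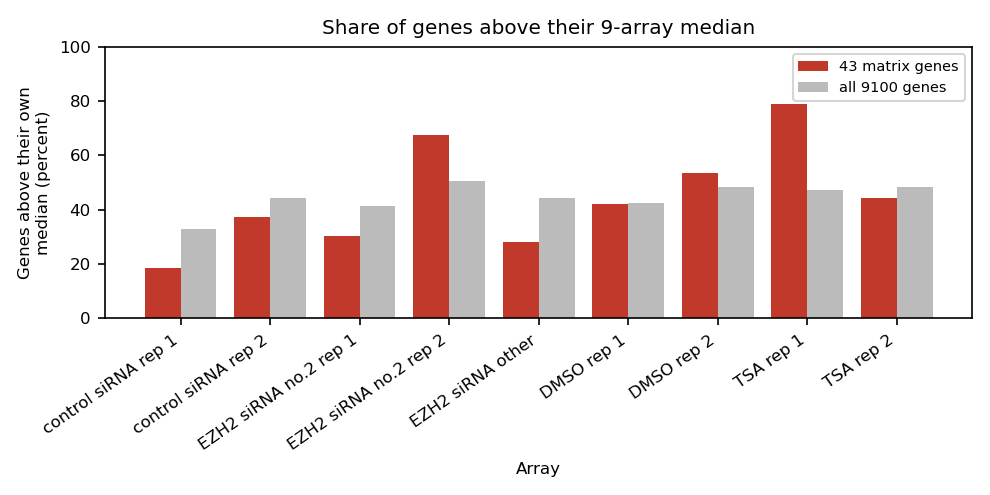
Percentage of genes whose signal on an array exceeds their own median over the 9 arrays, for the 43 matrix genes (red) and all 9100 genes (grey). TSA replicate 1 (79.1%), EZH2 siRNA no.2 replicate 2 (67.4%) and DMSO replicate 2 (53.5%) stand above their grey bars, and control siRNA replicate 1 (18.6%) is the lowest red bar.

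The effects of siRNA no.2 and of TSA share no arrays. Across the 43 matrix genes they correlated at Pearson's r = 0.53 and Spearman's rho = 0.48, against 0.26 for both measures over all genes, as a description over genes that are not independent of each other. Higher in both were 22 genes (51.2%, against 36.5% of all genes), and 9 were lower in both. Of the others, 8 were higher with siRNA no.2 and lower with TSA, and 4 were the reverse. FN1 had nearly equal differences, 0.51 and 0.48, and COL4A1 unequal ones, 1.00 and 0.25. The difference of the effects was tested directly as an interaction. No matrix gene had an unadjusted limma p under 0.05, where 1.23% of all genes had a larger and 0.56% a smaller effect of siRNA no.2, and 0% of all genes passed after adjustment (lowest adjusted p 0.999). The difference was 0.75 ± 0.47 (SE) for COL4A1, 0.65 ± 0.45 for COL5A2 and 0.27 ± 0.66 for COL6A3. The median difference over the 43 genes was 0.15, and -0.04 without TSA replicate 2.

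The other EZH2 siRNA was measured on 1 array, whose spread was taken to be that of the groups of 2. Its p-values thus hold no spread of that condition, and the genes below are listed as a description of 1 array. Against the same control arrays 25 matrix genes were higher and 18 lower, with a median log2 difference of 0.09 against 0.07 over all genes, of which 56.1% were higher. An unadjusted limma p under 0.05 was found for 3 higher genes and 1 lower, where 2.9% of all genes were higher and 2.23% lower at that level and 0% passed after adjustment. These were LAMA2, with 142 against 42.5 and 10.6 in the controls (1.76), COL5A2 with 2394 (1.05), COL9A2 (0.82) and, lower, COL9A3 with 41.1 against 234 and 125 (-1.57). The control signals of LAMA2 were both under the filter limit, and its other probe set past the filter gave -0.64. For the 6 genes named above, siRNA no.2 and the other EZH2 siRNA gave, side by side, 1.14 and 1.05 for COL5A2, 1.24 and 0.79 for COL6A3, and 0.72 and 0.51 for TNC. For FN1 they gave 0.51 and 0.37, for COL4A1 1.00 and 0.30, and for COL5A1 0.91 and 0.12. With the other EZH2 siRNA, 1 further probe set past the filter went the other way for each of COL5A1 (-0.26), TNC (-0.30) and FN1 (-0.16). These comparisons share their 2 control arrays. Without control replicate 1 the median of the 43 genes was -0.06 for the other EZH2 siRNA.

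Both kinds of control were also compared. DMSO against control siRNA, which differ in transfection and in time, gave 29 higher and 14 lower matrix genes, with a median of 0.19 against 0.05 over all genes, of which 56.6% were higher. An unadjusted limma p under 0.05 was found for 4 matrix genes, all higher, where 3.41% of all genes were higher and 1.19% lower, and 0% of all genes passed after adjustment. The 4 genes were COL3A1 (1.18), LAMA2 (1.00), LAMA5 (0.86) and COL9A2 (0.68), and the other LAMA2 probe set past the filter gave -0.17. The LAMA2 probe set behind the 1.00 passed the filter on its mean over all arrays, 73.3. Its mean with the control siRNA was 26.5, under the filter limit, so the size of that difference rests on dim control signals. Groups did not overlap for 12 higher and 0 lower matrix genes, and for 21.3% and 12.9% of all genes. The siRNA no.2 and DMSO comparisons both use the control siRNA arrays, and their values stood at 0.87 and 1.18 for COL3A1, 1.14 and 0.68 for COL5A2, 1.24 and 0.15 for COL6A3, 1.00 and 0.42 for COL4A1, and 0.72 and 0.65 for COL6A1.

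Genes that process and bind the matrix were taken from lists that share no gene with the 58. Of 19 tested genes for collagen processing (prolyl and lysyl hydroxylases, chaperones and propeptide cleavage), 14 were higher with siRNA no.2 and 9 with TSA, and none had an unadjusted p under 0.05. The smallest p belonged to PCOLCE, an enhancer of procollagen cleavage, with siRNA no.2 (978 and 1014 with the control, 682 and 657 after knockdown, log2 fold change -0.56, unadjusted p = 0.0702 with limma). With TSA it belonged to SERPINH1, the collagen chaperone HSP47 (4316 and 4523 with DMSO, 2983 and 3424 with TSA, -0.46, unadjusted p = 0.0684). Both genes were lower without overlap between the groups. PCOLCE was also lower in DMSO than in the control siRNA, by a log2 difference of -0.53, and SERPINH1 stood at 0.08 there.

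Of 16 tested receptors for collagen, laminin and other matrix proteins, 3 were higher with siRNA no.2 at an unadjusted limma p under 0.05. None were lower, where 3.96% of all genes were higher and 1.76% lower at that level. SDC4, the co-receptor syndecan-4, had 280 and 173 with the control and 408 and 403 after knockdown (0.81, unadjusted p = 0.0226). ITGB1, the beta chain shared by the collagen-, laminin- and fibronectin-binding integrins, had 3843 and 3220, then 5048 and 5056 (0.52, unadjusted p = 0.0448). ITGAV had 442 and 556, then 833 and 727 (0.62, unadjusted p = 0.0468). With TSA these receptors gave 0.10, 0.12 and 0.08, and none of the 16 had a p under 0.05. DMSO minus control siRNA was 0.55 for ITGB1, 0.14 for SDC4 and 0.05 for ITGAV, so for ITGB1 it was as large as the value with siRNA no.2. The adjusted p was 0.862 for each with siRNA no.2.

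Of 30 other matrix proteins, 1 was higher and 1 lower at an unadjusted limma p under 0.05 with siRNA no.2 (3.96% and 1.76% of all genes), and 3 higher and 1 lower with TSA (1.27% and 1.34% of all genes). With siRNA no.2 the count in each direction is thus about the share over all genes. TGFBI, a secreted adhesion protein, was the one in both counts. It had 3073 and 2449 with the control, 4143 and 5067 with siRNA no.2 (0.73, unadjusted p = 0.00955), 3180 and 3709 with DMSO and 5424 and 4700 with TSA (0.55, unadjusted p = 0.0385). MFAP3 was lower with siRNA no.2, at 223 and 107 against 314 and 354 (-0.98). ELN, the gene of elastin, was lower with TSA, at 362 and 442 against 776 and 733 (-0.87, unadjusted p = 0.0168 with limma). THBS3 and THBS2, both thrombospondins, were higher. THBS3 had 212 and 156 with TSA against 77.9 and 115 with DMSO (0.79). THBS2 had 67.4 and 99.2 with TSA against 17.6 and 40.6 with DMSO (1.02). Both DMSO signals of THBS2 were under the filter limit, so its place in the count rests on dim signals. In DMSO minus control siRNA these genes gave 0.32 for TGFBI, -0.39 for MFAP3, 0.03 for ELN, -0.76 for THBS3 and -0.81 for THBS2.

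Of 15 TGF-beta ligands, receptors and matrix-related targets, 2 were higher with siRNA no.2 at that level and none lower (3.96% and 1.76% of all genes), and none of the 15 with TSA. CCN1 had 401 and 318 with the control and 611 and 1144 after knockdown (1.17, unadjusted p = 0.00375 with limma). CCN2, the connective tissue growth factor, had 252 and 109 with the control and 344 and 459 after knockdown (1.13, unadjusted p = 0.0136). CCN1 and CCN2 were lower in DMSO than in the control siRNA, by log2 differences of -0.44 and -0.91.

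Most genes had several probe sets. Among the 24 matrix genes with at least 2 past the filter, all probe sets of a gene had the same direction in 20 with siRNA no.2 and in 14 with TSA. Counting all 83 matrix probe sets past the filter, 14 probe sets of 11 genes were higher at an unadjusted limma p under 0.05 with siRNA no.2 and 0 lower, against 3.56% and 1.71% of 13665 probe sets. The genes added to the 6 were BGN, COL1A2, COL3A1, FBLN1 and LAMC1. For FBLN1 the direction was mixed, since 2 of its 5 probe sets past the filter were higher and the brightest gave -0.79. Its highest log2 fold change, 1.48, came from a probe set with a mean signal of 25.7 with the control siRNA, under the filter limit. With TSA 6 probe sets of 3 genes (FN1, LAMB1 and LAMC1) were higher and 0 lower, against 1.24% and 1.17%.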

How the data were processed

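Gene expression was measured on 9 Affymetrix human U133A arrays. The deposited values are signal intensities that the authors computed with MAS5, per the submitters' processing notes. No version or scaling target of MAS5 is stated in the labels, and the trimmed mean of each array was 500.1 to 500.2. No detection calls were used here.

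The 22283 probe sets include 68 controls, 19065 with 1 annotated gene, 1043 with several and 2107 with none. Signals were turned into log2(signal + 25.1), the 20th percentile of all signals. Probe sets with 1 gene and a mean signal of at least 53.3, the 30th percentile, were kept (13665), and each of the 9100 genes was represented by its brightest one. Limma 3.58.1 (R 4.3.3) fitted 5 group means to all 9 arrays, with eBayes and trend (4 residual and 7.40 prior degrees of freedom). Tests were two-sided, with Benjamini-Hochberg adjustment over all 9100 genes and a threshold of 0.05. Fold changes are on the log2(signal + 25.1) scale and understate the change of dim genes. With 2 arrays a group, exact permutation could reach no p below 0.333, and it was not run. The fit was tested on simulated data.

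The matrix genes, their roles and the other gene lists were chosen with earlier results of these data known, so their counts and medians are descriptions. Values were given array by array for up to 8 matrix genes each way with an unadjusted p under 0.05 in a main comparison (or the 3 with the smallest p) and the 2 brightest genes of each role. Other matrix genes are named to complete a role. For the other lists, genes with an unadjusted p under 0.05 or, failing these, that with the smallest p were named. Promoters are from RefSeq, GRCh38.p14. The alternatives were pseudocounts at the 5th and 40th percentile, all probe sets in place of 1 per gene, no filter or one at the 50th percentile, quantile normalization, scaling to a common median, eBayes without trend, only the groups compared, all 3 EZH2 siRNA arrays in 1 group, the replicate number as a block, and leaving out single arrays.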

Additional observations from a re-analysis of the deposited data

How the results depend on the processing

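No gene passed the adjusted threshold in any comparison under any setting run, with 364 to 807 genes at an unadjusted limma p under 0.05 for siRNA no.2 and 106 to 759 for TSA. The number of matrix genes higher with siRNA no.2 at that level (6) became 14 probe sets of 11 genes when every probe set was counted. Leaving out 1 array moved it too. The number lower (0) was 1 with no filter, with arrays scaled to the same median, with the 3 EZH2 siRNA arrays as 1 group, with the replicate block and with only the groups compared, and 0 to 1 with 1 array left out. For TSA the number higher (1) was 6 with every probe set, 2 with quantile normalization or the replicate block, 0 with median scaling, without the trend or with only the groups compared, and 0 to 5 with 1 array left out. The number lower with TSA (0) was 1 with no filter and 0 to 1 with 1 array left out.

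The median of the matrix genes with siRNA no.2 (0.26) was 0.14 with quantile normalization and 0.14 with median scaling, and 0.14 to 0.36 with 1 array left out. For DMSO against control siRNA (0.19) these were 0.148, 0.091 and 0.102 to 0.278. With 1 array left out it turned sign for the other EZH2 siRNA (-0.059 to 0.239) and for the difference of effects (-0.043 to 0.422), and was 0.01 to 0.43 for TSA. The cause was not tested. None of the 15 fold changes (12 genes) chosen by their p in a main comparison turned sign under the settings run. Except for LOXL1 and LAMB2 with siRNA no.2, their groups did not overlap, so leaving out 1 array could not turn them. Each gene kept its brightest probe set here, while some other probe sets of FBLN1 (siRNA no.2) and VCAN (TSA) went the other way. Other matrix genes did turn sign, for example NID1 and NID2, which were higher in place of lower without control siRNA replicate 2. There, 7 of 8 fibrillar collagens were higher in place of 8, and 1 of 3 proteoglycans in place of 2. Without siRNA no.2 replicate 1, all 4 fibril-associated collagens were higher in place of 2, and all 3 basement membrane collagens in place of 2. The replicate 2 minus replicate 1 differences of the groups correlated at r = 0.098 to 0.409. The replicate 2 arrays also had brighter hybridisation controls and higher ACTB ratios, and the labels do not say what a number shares, so the pairing was not settled. With the replicate block 8 matrix genes were higher with siRNA no.2 at an unadjusted limma p under 0.05, COL6A3 joined FN1 with TSA (unadjusted p = 0.0392), and the counts over all genes were 807 for siRNA no.2 and 414 for TSA in place of 520 and 238. With 2 arrays a group, the spread behind each p rests largely on the prior shared by all genes.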
